A study of Drosophila melanogaster with 36 samples.

Results

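The recovery response of newly made RNA was set against that of the standing messenger RNA pool in Drosophila melanogaster S2R+ cells, a cultured line of haemocyte-like cells. For each gene the log2 change from control to recovery in poly(A) RNA was subtracted from the same change in captured RNA. Of 36 libraries in the series, 12 entered, in 4 groups of 3 labelled as replicates. The captured groups carry the condition Click-iT and titles that name beads: untreated cells, and cells given 0.5 mM sodium arsenite for 3 h and then left for 3 h in fresh medium. The poly(A) groups are WT cells, without RNA interference, under the same treatments. No transgene or knockdown is named for any of the 4 groups. The labels do not say whether replicates were separate cultures, so p-values measure the spread between these libraries. They describe neither the tagging time nor a capture without tag, so how far the captured RNA was new was not tested. Of 17137 genes in the files, 8443 had enough counts for the test of the difference.

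Click chemistry joins a tag on an altered nucleotide, taken up by living cells into RNA as it is made, to a handle that beads can hold. Captured RNA is thus weighted toward recent synthesis, while a poly(A) library shows what has been made and not yet degraded. A stable, abundant message can be made anew for hours with little change in the pool, and a message can change in the pool through decay alone. Arsenite, a poison that binds protein thiols, damages proteins and calls up the heat-shock response, in which chaperones of the Hsp70, Hsp90 and small heat-shock families are induced. It also stalls translation through the integrated stress response.

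The captured libraries were shallower and more variable. They held 169760 to 1451741 assigned counts, against 6121664 to 8940613 in the poly(A) libraries. Reads with several alignments, which were not counted, made up 70.2 to 94.2% of the captured and 3.88 to 5.24% of the poly(A) libraries. The common biological coefficient of variation was 34.8% among captured and 2.15% among poly(A) libraries. Of 9 tested S2R+ markers, srp, a GATA factor of blood cells, stood at 546 CPM (counts scaled to a common library size) in captured and 514 CPM in poly(A) controls, and Hml, a haemocyte protein, at 621 and 286 CPM. Pxn, peroxidasin of the extracellular matrix, stood at 277 and 3594 CPM, and the summed level of the list was lower in captured controls, at 1960, 2439 and 2062 CPM, than in poly(A) controls, at 4782, 4899 and 4967 CPM. None of the 9 passed the test of the difference.

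The recovery captures differed among themselves. By chi-square per degree of freedom replicates 1 and 2 were furthest apart, at 21.2, against 6.01 for 1 and 3 and 6.43 for 2 and 3. The summed level of the Hsp70 and Hsp68 genes was 618, 596 and 706 CPM in the captured controls and 23350, 4248 and 12602 CPM in captured recovery replicates 1, 2 and 3. The summed ribosomal-protein level of recovery replicate 2 was the highest of the captures, at 155293 CPM against 45729 and 104091 in replicates 1 and 3. Its share of uniquely aligned reads assigned to no counted feature was the lowest, at 14.1% against 40.9 and 35.4%. The counting settings are not given, so whether such reads include introns is not known. Recovery replicate 1 stood apart in small nuclear RNAs, at 4139 CPM summed against 14685 and 13635 in replicates 2 and 3. Its share of reads with several alignments was 76.3% against 92.5 and 88.4%. Captured control replicate 2 stood apart as well, with 32561 CPM of ribosomal-protein genes against 92564 and 131845 in the other captured controls. Its share of unique reads assigned to no feature was 35.1% against 24.1 and 19.3%. Within each captured group the order of the libraries by ribosomal-protein level was the reverse of their order by the share of reads without a feature. The part of these features in the results below was not tested.

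The difference passed the threshold, an adjusted p under 0.05 in edgeR's quasi-likelihood test with Benjamini-Hochberg adjustment over all genes, in 106 of 8443 genes (1.26%). In 76 genes (0.900%) the captured response was the higher and in 30 (0.355%) the lower. A called difference was at least 1 in size in 102 genes (1.21%). The 2 responses on their own were called in 281 of 5448 genes in captured RNA (5.16%), 270 higher (4.96%) and 11 lower (0.202%), and in 5666 of 8036 genes in poly(A) RNA (70.5%), 2923 higher (36.4%) and 2743 lower (34.1%). With total counts in place of TMM scaling these splits were 224 higher and 76 lower in captured RNA and 2019 higher and 4160 lower in poly(A) RNA. Fewer captured calls therefore do not show fewer changes, since the captured libraries had the larger spread. Across the 5331 genes tested in every fit the responses had a Pearson's r of 0.74 and a Spearman's rho of 0.58, given as a description over genes that share libraries.

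The count of called differences rested on single libraries. Without captured recovery replicate 2 it was 1049, 763 higher and 286 lower, with 105 of the 106 genes still called. Without captured recovery replicate 1 it was 55 and without replicate 3 it was 34. Without captured control replicates 1, 2 and 3 it was 57, 72 and 222. Leaving out WT control replicates 1, 2 and 3 gave 13, 21 and 17, and WT recovery replicates 1, 2 and 3 gave 23, 26 and 15. In each of the 12 fits that leave out 1 library, 10 of the 106 genes were called. The edgeR test took 1 spread per gene over all 12 libraries, though the captured ones varied more. Its p-values can therefore be too small. With each group of libraries given its own weight in limma's voom the count was 34, of which 26 were among the 106. Of the genes named below, dgt4, zormin, Hsp70Bb, Gip, Surf1, sgl, Gapdh2, Hsc70Cb, nAChRbeta3, myo, CG6659, Prx2540-2, RNaseMRP:RNA, Ldh, CG9932, SP1029, Thor, Toll-7 and CG30460 passed with these weights. Mock poly(A) libraries, from cells given the control treatment of an RNA interference experiment, were used as a second reference in place of WT, and 63 of the 106 genes passed with them. In the 76 higher genes captured recovery replicate 2 was the lowest of the 3 recovery captures in 55, beside 3366 of all 8443 genes tested.

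**Figure D1:**
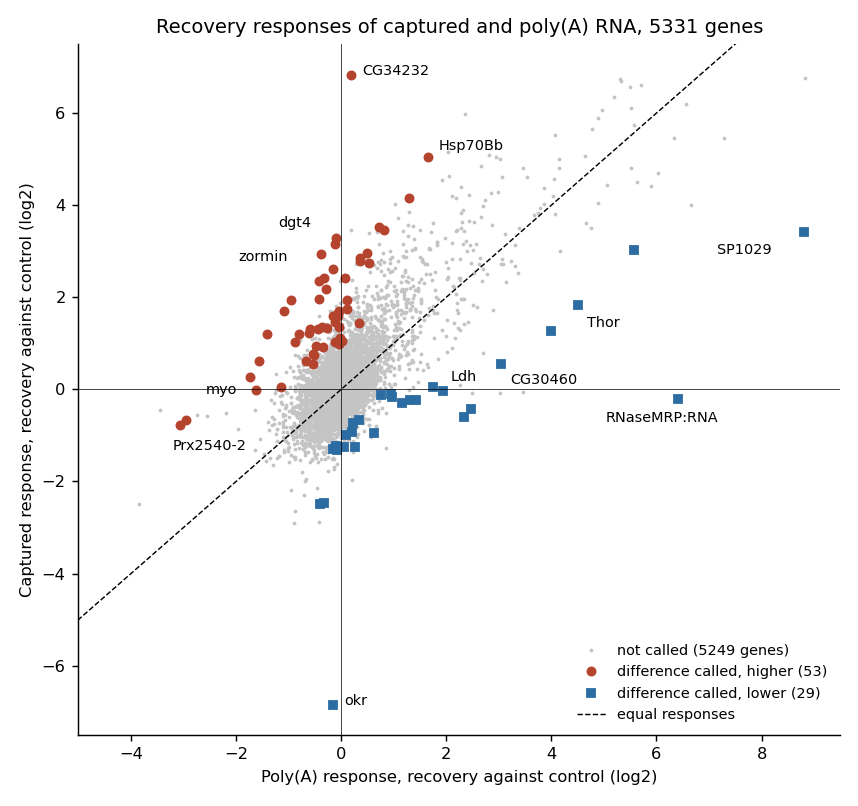
Log2 change from control to recovery in poly(A) RNA (horizontal) and in captured RNA (vertical) for the 5331 genes tested in all fits. Circles and squares mark genes whose difference was called, higher or lower in captured RNA, and the dashed line marks equal responses. CG34232 lies at 6.84 in captured and 0.20 in poly(A) RNA, and RNaseMRP:RNA at -0.20 and 6.41.

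Most of the recovery programme that could be tested in both kinds of RNA moved the same way. Of 337 genes raised at least 2-fold in poly(A) RNA and testable in captured RNA, 326 had a captured change above 0, 186 were called higher there, 0 were called lower, and 15 had a called difference. Their median log2 change was 2.18 in captured and 1.65 in poly(A) RNA. A gene could pass the count filter through the recovery captures alone, and such genes rise in captured RNA by selection. These counts are therefore a description. Of 72 genes lowered at least 2-fold in poly(A) RNA, 64 had a captured change below 0, 2 were called lower, 8 had a called difference, and the medians were -0.71 in captured and -1.18 in poly(A) RNA. Of the 281 genes called in captured RNA, 266 were called in the same direction in poly(A) RNA, 5 in the opposite direction, and 41 had a poly(A) change under 0.5 in size. Those 5 genes, zormin, sls, nAChRbeta3, CG5961 and GlcAT-P, were called higher in captured and lower in poly(A) RNA and all had a called difference, with poly(A) changes of -0.38, -0.12, -0.42, -0.33 and -0.28. The captured and poly(A) fits use separate libraries and share no controls.

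The genes with a called difference were sorted by their separate responses. A captured-only gene had a called captured change of at least 1 on the log2 scale and a poly(A) change under 0.5 in size, and a poly(A)-only gene had the reverse. The first class held 17 genes with the captured response higher and 4 lower, and the second 3 higher and 7 lower. A further 8 genes were called in the same direction in both at different sizes, 5 with the captured response higher and 3 lower. The other 67, 51 higher and 16 lower, met neither rule. With the bound for a small response at 0.25, the captured-only class held 9 higher and 2 lower genes. The classes use the WT poly(A) response and were not set again with Mock libraries. Mock levels of several captured-only genes are given below, and some changed by more than in WT.

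CG34232, a protein-coding gene of unknown role at dm6 chromosome 2R from 12164909 to 12165812 on the minus strand, had the largest difference among captured-only genes with a higher captured response. Its level was 7.76, 7.36 and 1.54 CPM in the captured controls and 1204, 102 and 598 CPM in captured recovery replicates 1, 2 and 3. In poly(A) RNA it was 503, 500 and 479 CPM in control and 551, 556 and 545 CPM in recovery. All 3 recovery captures thus lay above all controls, as they or the reverse did in 26.1% of all genes tested (71.2% in poly(A) RNA), beside a poly(A) level that was high from the start. The captured change was 6.84 ± 0.96 (log2 ± SE, edgeR adjusted p = 0.0106) and the poly(A) change 0.20 ± 0.03. The difference was 6.56 ± 0.92 (edgeR adjusted p = 0.0116) and was called in each of the 12 fits that leave out 1 library, but with voom weights it was 6.02 with an adjusted p of 0.108. In the captured stress libraries, which did not enter the test and were scaled in a fit of 18 libraries, CG34232 stood at 54.7, 7.75 and 696 CPM. Its Mock poly(A) level rose from 214, 181 and 182 CPM in control to 327, 312 and 292 CPM in recovery. With Mock libraries the difference was 5.87 and passed (edgeR adjusted p = 0.00861). The captured-only class of CG34232 thus rests on the smaller WT change.

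The captured response was also the higher in zormin, which encodes a titin-like protein of the muscle Z-disc, and in sls, which encodes sallimus (kettin). For zormin the captured level was 37.5, 45.5 and 30.8 CPM in control and 453, 98.2 and 258 CPM in recovery, while the poly(A) level was 378, 391 and 405 CPM in control and 300, 293 and 287 CPM in recovery. The captured groups did not overlap, and the poly(A) groups did not overlap in the opposite direction. The zormin difference was 3.23 ± 0.51 (edgeR adjusted p = 0.0116). Mock poly(A) libraries held zormin at 334, 438 and 430 CPM in control and 281, 268 and 285 CPM in recovery. For sls the captured mean was 31.4 ± 17.1 CPM (SD, n = 3) in control and 270 ± 184 CPM in recovery. Its poly(A) means were 113 and 101 CPM. The sls difference was 3.10 ± 0.64 (edgeR adjusted p = 0.0386), lost with voom weights at an adjusted p of 0.172. In Mock poly(A) libraries sls fell from 180, 314 and 298 CPM to 154, 166 and 165 CPM.

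The gene of projectin, bt, singled out after its values were seen, had 2 counts over the captured controls and 32 over the recovery captures. That is a ratio of 61.6, with an exact 95% interval of 15.7 to 531 for counting error only. Its poly(A) level was 7.33 ± 1.26 CPM (SD, n = 3) in control and 8.61 ± 0.577 CPM in recovery. The difference for bt was called in all 12 fits that leave out 1 library (edgeR adjusted p = 0.0116 over all libraries), but not with voom weights (adjusted p = 0.0995). Zormin and sls are neighbours on chromosome 3L, at 2117466 to 2151700 and 2039681 to 2115611 on the minus strand, while bt lies on chromosome 4. The muscle marker Mhc, the myosin heavy chain, stood at 1.39 CPM in captured control and 146 CPM in captured recovery, and at 0.299 and 2.01 CPM in poly(A) RNA, with a difference of 3.79 that did not pass (edgeR adjusted p = 0.471).

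**Figure D2:**
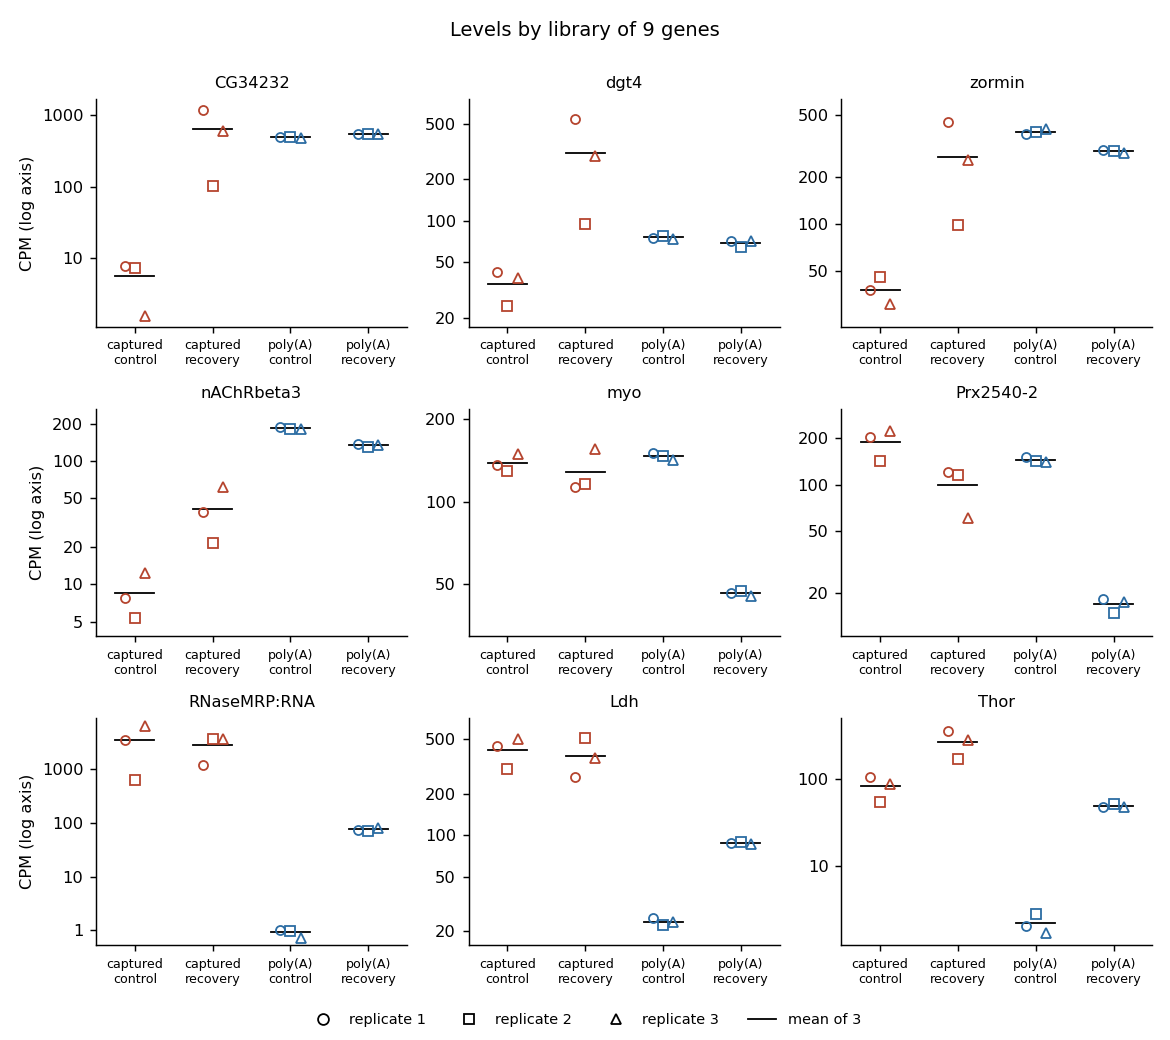
Level of 9 genes in each library, in CPM on a log axis. Open symbols mark replicates 1, 2 and 3 and bars their mean, for captured RNA (2 groups at left) and poly(A) RNA (2 groups at right). In the top row the captured level of CG34232, dgt4 and zormin was lower in all controls than in all recovery libraries, with recovery replicate 2 the lowest of 3.

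The other named captured-only genes with a higher captured response were dgt4 and CG5961. For dgt4, a subunit of the augmin complex that nucleates spindle microtubules, the captured level was 42.7, 24.1 and 38.4 CPM in control and 539, 94.6 and 292 CPM in recovery. Its poly(A) means were 75.7 ± 1.74 CPM (SD, n = 3) in control and 69.2 ± 3.72 CPM in recovery. In Mock poly(A) libraries dgt4 stood at 55.2, 52.6 and 56.9 CPM in control and 51.1, 45.4 and 48.2 CPM in recovery. The dgt4 difference was 3.36 ± 0.57 (edgeR adjusted p = 0.0187). Its exons overlap those of Nsun2 and Tip60 on the other strand, whose differences were 0.05 and 0.02 and did not pass. For CG5961, of no stated role, the difference was 2.72 ± 0.48 (edgeR adjusted p = 0.0187), with captured means of 23.1 in control and 112 CPM in recovery. It was lost with voom weights, at an adjusted p of 0.0879. The Mock poly(A) level of CG5961 went from 47.9, 44.4 and 41.4 CPM to 38.3, 38.7 and 36.0 CPM.

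A nicotinic acetylcholine receptor subunit, nAChRbeta3, was singled out after its values were seen because its call held under more alternatives. Its captured level was 7.76, 5.36 and 12.3 CPM in control and 38.7, 21.8 and 61.2 CPM in recovery, and its poly(A) level 189, 182 and 180 CPM in control and 136, 130 and 134 CPM in recovery. With WT libraries the groups did not overlap in either kind of RNA and moved in opposite directions, although the poly(A) fall of 0.42 was under the bound. In Mock poly(A) libraries nAChRbeta3 stood lower, at 32.0, 28.9 and 29.1 CPM in control and 32.5, 27.4 and 27.5 CPM in recovery. Those groups overlapped, so the opposite movement was not seen there, while the difference with Mock libraries was 2.19. With WT libraries the difference was 2.74 ± 0.42 (edgeR adjusted p = 0.0116). Exons of nAChRbeta3 overlap Ets21C, an inducible ETS transcription factor on the other strand, whose captured change was 1.83 and poly(A) change 0.97. The kit named in the labels does not mark strand, and its text is written for the poly(A) libraries. The counts set aside 1.12 to 1.55% of unique captured reads as ambiguous between genes, by settings that are not given. How far reads of an overlapping gene entered either count was not tested.

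Overlap with a gene on the other strand was frequent among the captured-only genes. Exons of 11 of the 17 genes with a higher captured response (64.7%) overlapped an exon on the other strand. The share was 44.7% over all 76 genes with a higher difference (34 genes), 20.0% over the 30 lower ones (6 genes) and 37.0% over the 8420 tested genes matched to the annotation. This is a description of a small class, with no test.

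Captured-only genes with a lower captured response numbered 4. The gene spel1, a fly MutS homologue of mismatch repair, stood at 50.4, 79.0 and 61.5 CPM in captured control and 8.94, 10.9 and 13.6 CPM in captured recovery. Its poly(A) level was 40.0 ± 3.29 CPM (SD, n = 3) in control and 31.2 ± 2.60 CPM in recovery. In Mock poly(A) libraries spel1 fell further, from 36.3, 39.2 and 39.4 CPM to 21.5, 25.4 and 23.4 CPM. The spel1 groups did not overlap in either kind of RNA, and the difference of -2.28 ± 0.43 passed (edgeR adjusted p = 0.0263) but was lost with voom weights at an adjusted p of 0.395. Sara, an anchor for Smad signalling at endosomes, fell in captured RNA from 292, 334 and 255 CPM to 86.4, 160 and 102 CPM, at poly(A) means of 161 and 147 CPM. Its difference of -1.20 ± 0.27 (edgeR adjusted p = 0.0462) did not pass with Mock RNAi poly(A) libraries in place of WT (-0.91, adjusted p = 0.109). In those libraries Sara fell from 160, 179 and 175 CPM to 111, 119 and 121 CPM.

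The last 2 of these genes, okr and CG13795, were below the level set for naming and were singled out after their values were seen. For okr, the fly Rad54 of recombinational repair, 67 counts lay in the captured controls and 0 in the recovery captures. With 3 counts over the recovery group as the floor, the okr level was 5.80-fold lower in captured recovery, leaving out the counting error of the 67 counts. Its poly(A) level was 11.2 ± 1.59 CPM (SD, n = 3) in control and 9.78 ± 1.01 CPM in recovery. The okr call held in 2 of the 12 fits without 1 library and was lost with voom weights (limma voom adjusted p = 0.366). For CG13795 the captured level went from 44.0, 36.1 and 43.1 CPM to 8.94, 3.64 and 6.80 CPM. The CG13795 difference was -2.15 ± 0.37 (edgeR adjusted p = 0.0187). Its Mock poly(A) level fell from 34.7, 39.0 and 37.3 CPM to 18.8, 19.0 and 19.6 CPM.

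Among poly(A)-only genes RNaseMRP:RNA had the largest difference in size, -6.64. It is the RNA subunit of RNase MRP, an endonuclease of ribosomal RNA processing, and most copies of such RNAs end without a poly(A) tail. It lies at dm6 chromosome 3R from 23730048 to 23730429 on the minus strand. Its captured level was 3464, 627 and 6490 CPM in control and 1192, 3746 and 3686 CPM in recovery, so the captured groups overlapped. In poly(A) RNA it was 1.02, 0.970 and 0.727 CPM in control and 74.3, 71.9 and 80.7 CPM in recovery. The poly(A) change was 6.41 ± 0.14, the captured change -0.20 ± 0.79 and the difference -6.64 ± 1.02 (edgeR adjusted p = 0.0116). The call for RNaseMRP:RNA held in each fit without 1 library, with voom weights and with the Mock libraries, where its level was 2.5, 1.63 and 10.0 CPM in control and 293, 210 and 230 CPM in recovery. In the WT poly(A) stress libraries, scaled in a fit of 18 libraries, it stood at 246, 262 and 241 CPM.

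Other noncoding RNAs were measured in the same way, and none of those named next passed. The spliceosomal snRNA:U2:34ABa stood at 1.93 CPM in poly(A) control and 20.9 CPM in poly(A) recovery, beside 2124 and 1923 CPM in captured RNA. Its difference was -3.56 ± 1.05 (edgeR adjusted p = 0.103). For snRNA:7SK, which holds the elongation factor P-TEFb inactive, the poly(A) level was 1.30 and 10.3 CPM and the difference -3.13 ± 0.95 (edgeR adjusted p = 0.107). RNaseP:RNA, the RNA of RNase P, went from 4.26 to 7.27 CPM in poly(A) RNA with a difference of -0.84 (edgeR adjusted p = 0.690). Over the 12 tested small nuclear RNAs the median difference was -1.69, with 0 called in either direction and 2 at an unadjusted p under 0.05. Captured control replicate 2 was low in this class, at 2271 CPM summed against 12295 and 21413 in the other captured controls. Captured recovery replicate 1 was low likewise, at 4139 CPM against 14685 and 13635 in the other recovery captures.

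Ldh, lactate dehydrogenase, rose in the poly(A) pool from 25, 22.2 and 23.3 CPM to 87.6, 88.8 and 86.3 CPM. Its captured level was 446, 303 and 497 CPM in control and 262, 505 and 360 CPM in recovery. The captured groups of Ldh overlapped throughout and both were far above the poly(A) levels of the same gene. The difference was -2.04 ± 0.32 (edgeR adjusted p = 0.0116). It was called in every fit without 1 library, with voom weights, and with the Mock libraries, where Ldh stood at 228, 221 and 195 CPM in control and 1398, 1418 and 1298 CPM in recovery and the difference was -2.92.

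Another 5 poly(A)-only genes had a lower captured response. Ret, a receptor tyrosine kinase, went from 0.550 to 3.06 CPM in poly(A) RNA, beside captured means of 83.4 and 59.2 CPM, with a difference of -3.03 ± 0.54 (edgeR adjusted p = 0.0190). CG9932 went from 69.3 to 182 CPM in poly(A) RNA, with a difference of -1.73 ± 0.33 (edgeR adjusted p = 0.0268). Ac78C, an adenylyl cyclase, went from 3.18 to 7.71 CPM, with a difference of -1.63 ± 0.33 (edgeR adjusted p = 0.0354). With Mock libraries the differences were -0.88 for Ret, -0.73 for CG9932 and -0.59 for Ac78C, none of which passed. The other 2 genes of the class, Dmtn and Cyp6a23, a cytochrome P450, had differences of -1.49 and -1.66 that still passed with Mock libraries at -1.06 and -1.21.

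The genes myo, Syngr and CG7839 fell in the poly(A) pool with a captured change that did not pass. For myo, the TGF-beta ligand myoglianin, the captured level was 136, 130 and 149 CPM in control and 113, 116 and 156 CPM in recovery. Its poly(A) level was 151, 147 and 142 CPM in control and 46.5, 47.3 and 45.1 CPM in recovery. The captured groups overlapped while the poly(A) groups were far apart and tight. The myo difference was 1.52 ± 0.20 (edgeR adjusted p = 0.0116), and was called in every fit without 1 library, with voom weights and with Mock libraries (1.4). Syngr, synaptogyrin of vesicle membranes, went from 114 to 33.1 CPM in poly(A) RNA beside captured means of 42.2 and 46.4 CPM, and CG7839 went from 76.7 to 33.7 CPM beside captured means of 53.9 and 51.5 CPM. Their differences were 1.95 ± 0.29 (edgeR adjusted p = 0.0116) and 1.11 ± 0.23 (edgeR adjusted p = 0.0375).

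The peroxiredoxin gene Prx2540-2, singled out after its values were seen, fell in the pool, while its captured change did not pass. It stood at 152, 143 and 142 CPM in poly(A) control and 18.4, 14.7 and 17.5 CPM in poly(A) recovery. Its captured level was 203, 143 and 223 CPM in control and 122, 116 and 61.2 CPM in recovery. The groups did not overlap in either kind of RNA, and the poly(A) decrease was the larger. The difference of 2.28 ± 0.31 (edgeR adjusted p = 0.0116) held in every fit without 1 library, with voom weights and with Mock libraries. Prx2540-1, a near copy, had a difference of 2.29 ± 0.41, and the split of reads between these copies is uncertain. Jafrac1, another peroxiredoxin, had a difference of -0.03 that did not pass (edgeR adjusted p = 0.994). CG6659, of no stated role, fell in poly(A) RNA from 117 to 38.7 CPM beside captured means of 52.9 and 75.9 CPM, with a difference of 2.09 ± 0.30 (edgeR adjusted p = 0.0116).

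By a criterion chosen after seeing the data, 6 genes held their call in each of the 12 fits without 1 library, with voom weights and with Mock poly(A) libraries. They were RNaseMRP:RNA and Ldh, with a lower captured response, and nAChRbeta3, Prx2540-2, CG6659 and myo, with a higher one. In 5 of these 6 the larger of the 2 changes was that of the poly(A) pool, and in nAChRbeta3 it was that of captured RNA. With the 12 fits and voom weights alone, Thor and CG30460 joined them.

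Genes that rose in both kinds of RNA at different sizes included heat-shock and translation genes. Thor, the fly 4E-BP that restrains cap-dependent translation, rose in poly(A) RNA from 2.04, 2.79 and 1.70 CPM to 47.4, 51.2 and 47.8 CPM. In captured RNA it rose from 105, 54.2 and 87.6 CPM to 358, 167 and 279 CPM. The Thor groups did not overlap in either, and the difference was -2.70 ± 0.42 (edgeR adjusted p = 0.0116). With Mock libraries, whose control level was 9.82, 11.1 and 8.29 CPM and recovery level 51.9, 58.7 and 54.5 CPM, it was -0.85 and did not pass (edgeR adjusted p = 0.166). SP1029 rose from 0.510 to 231 CPM in poly(A) RNA and from 80.0 to 772 CPM in captured RNA, with a difference of -5.45 ± 0.95 (edgeR adjusted p = 0.0187), and -3.59 with Mock libraries (adjusted p = 0.0716).

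In 5 genes that rose in both, the captured rise was the larger. The mitochondrial release factor gene mRF1 rose from 6.51 to 96.9 CPM in captured and from 16.9 to 40.0 CPM in poly(A) RNA, a difference of 2.99 ± 0.63 (edgeR adjusted p = 0.0396). The differences of Gip, CG18547 and CG12746 were 2.84, 2.56 and 2.18. These 3 and mRF1 all passed with Mock libraries. Their captured means, for Gip, CG18547 and CG12746, rose from 18.1, 7.80 and 25.8 CPM to 186, 83.0 and 156 CPM, and their poly(A) means from 69.2, 37.5 and 50.2 CPM to 110, 64.0 and 70.9 CPM. The fifth was Hsp70Bb.

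The inducible Hsp70 genes are near-identical copies, so differences among them are uncertain. Hsp70Bb rose from 44.0, 25.4 and 52.3 CPM to 2020, 491 and 1136 CPM in captured RNA and from 117 ± 16.4 to 361 ± 2.49 CPM (SD, n = 3) in poly(A) RNA, a difference of 3.34 ± 0.56 (edgeR adjusted p = 0.0187). Hsp70Bbb had a difference of -2.45 ± 0.54 (edgeR adjusted p = 0.0462), at 7.14 and 50.1 CPM in captured and 1.85 and 85.6 CPM in poly(A) RNA, and did not pass with Mock libraries (-1.64, adjusted p = 0.135). Hsp68, a separate member of the family, rose from 554 ± 36.7 to 11414 ± 8397 CPM in captured RNA and from 58.9 ± 5.21 to 2811 ± 73.5 CPM in poly(A) RNA. Its difference of -1.21 did not pass (edgeR adjusted p = 0.339) and was 1.08 with Mock libraries. All 5 tested members of the list rose in both kinds of RNA, and the median difference of -1.32 was -0.11 with Mock libraries.

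The lists of small heat-shock genes and of Hsp90, cognate and co-chaperone genes held 0 called differences. The 5 tested small heat-shock genes rose in poly(A) RNA and the 3 testable ones rose in captured RNA, with a median difference of 0.05 that was 0.86 with Mock libraries and 0.43 without captured recovery replicate 2. Hsp26 rose from 201 to 3912 CPM in captured and from 33.1 to 1910 CPM in poly(A) RNA, and its difference of -1.56 (edgeR adjusted p = 0.133) was 0.01 with Mock libraries. Of 13 Hsp90, cognate and co-chaperone genes 12 had a difference above 0, with a median of 0.80 beside 0.07 over all genes and 0 called. Among them DnaJ-1, an Hsp40 partner of Hsp70, rose from 312 to 7005 CPM in captured and from 223 to 2523 CPM in poly(A) RNA, and Hsc70-4, the main constitutive Hsp70, stood at 2290 and 6261 CPM in captured RNA and 3297 and 4378 CPM in poly(A) RNA. Their differences of 0.99 and 1.04 did not pass. Without captured recovery replicate 2, 8 of the 13 were called higher, beside 763 higher and 286 lower over all genes in that fit. Outside the lists, and named after its values were seen, Hsc70Cb, an Hsp110-type chaperone, rose from 241 to 748 CPM in captured RNA and from 583 to 612 CPM in poly(A) RNA, with a called difference of 1.57 ± 0.33 (edgeR adjusted p = 0.0419). The DnaJ protein gene mrj, named likewise, had a called difference of 1.22 ± 0.23 (edgeR adjusted p = 0.0293).

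**Figure D3:**
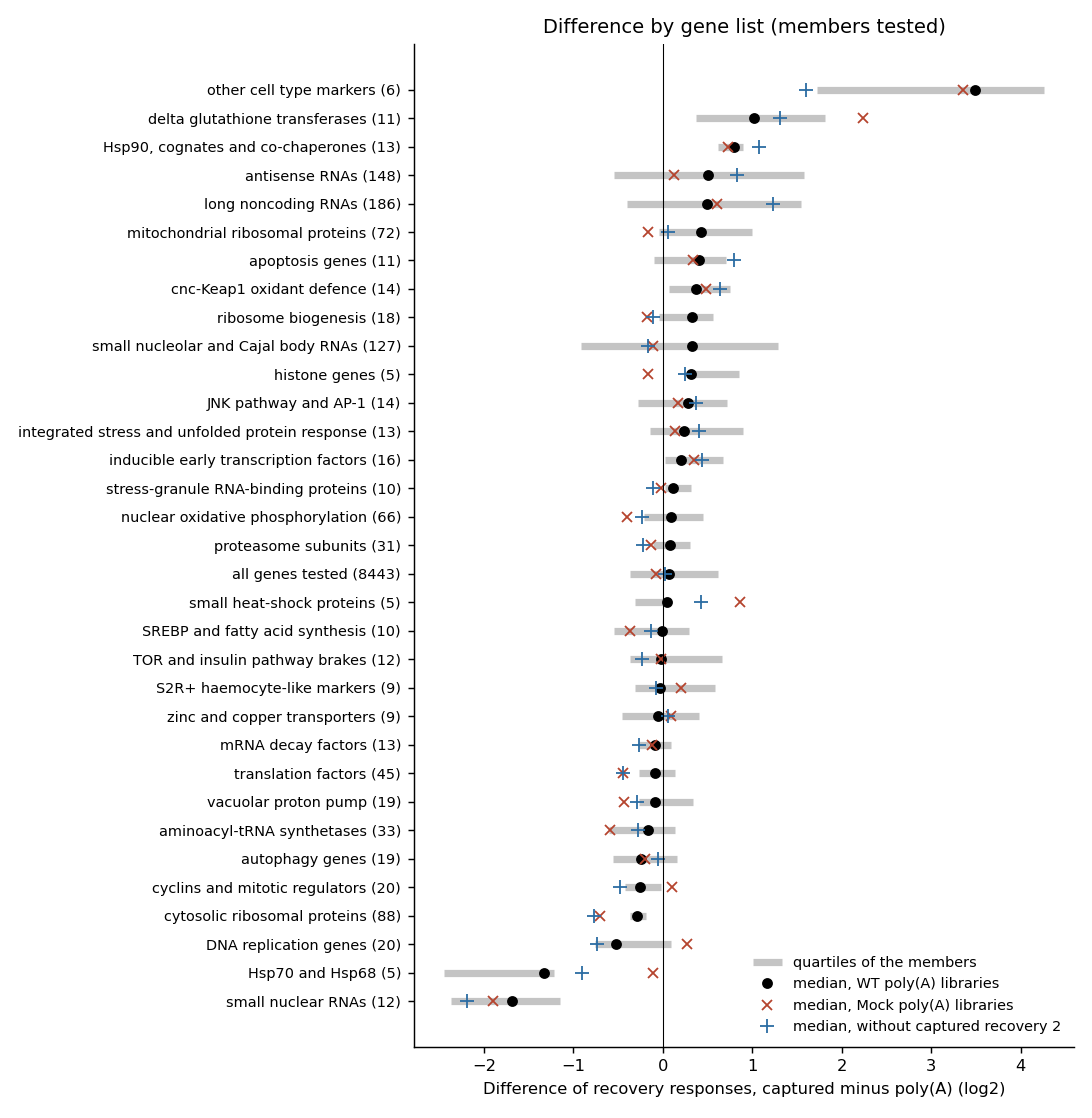
Difference of recovery responses, captured minus poly(A), on the log2 scale for each gene list with at least 5 tested members. Bars span the quartiles of the members, dots the median with WT poly(A) libraries, crosses the median with Mock poly(A) libraries and plus signs the median without captured recovery replicate 2. The Hsp70 and Hsp68 median moves from -1.32 to -0.11 with Mock libraries, and that of the Hsp90 list from 0.80 to 0.73.

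In the stress pathways, few members had a called difference. Of 13 genes of the integrated stress and unfolded protein response, Thor was called, lower, and the median difference was 0.23, or 0.41 with 4 called higher and 1 lower without captured recovery replicate 2. AsnS, asparagine synthetase, rose from 127 to 1165 CPM in captured and from 102 to 242 CPM in poly(A) RNA, and Sesn, sestrin, rose from 54.8 to 228 CPM in captured and from 120 to 142 CPM in poly(A) RNA. Their differences of 1.96 and 1.87 did not pass (edgeR adjusted p = 0.140 and 0.0534), and without captured recovery replicate 2 they were 2.44 and 2.25 and passed. Of 11 delta glutathione transferases, detoxifying enzymes, all rose in poly(A) RNA and 3 of the 4 testable rose in captured RNA, with 0 differences called and a median of 1.02. That median was 2.24 with Mock libraries, and 1.31 with 3 called higher without captured recovery replicate 2. Among 14 genes of the cnc-Keap1 oxidant response 0 differences were called, at a median of 0.37, and without captured recovery replicate 2 it was 0.64 with 5 called higher. The 14 JNK pathway genes, the 16 inducible early transcription factors and the 2 tested metallothionein-pathway genes also had 0 called, at medians of 0.28, 0.21 and 0.38. The metallothionein-pathway median was -0.36 with Mock libraries. Without captured recovery replicate 2, 5 of the JNK pathway genes were called higher and 1 lower, and 6 of the early transcription factors were called higher. All list counts from that fit stand beside 763 genes called higher and 286 lower over all genes.

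Of 88 cytosolic ribosomal-protein genes 83 rose and 2 fell in poly(A) RNA, while of the 84 testable in captured RNA 0 were called. Their median difference was -0.28, or -0.70 with Mock libraries and -0.77 without captured recovery replicate 2, 8 of 88 lay above 0, and 0 were called. These are the genes whose summed level was highest in captured recovery replicate 2 and lowest in captured control replicate 2. Of 72 mitochondrial ribosomal-protein genes 57 fell and 2 rose in poly(A) RNA, and the median difference was 0.43, or -0.17 with Mock libraries and 0.06 without captured recovery replicate 2, with 1 called: mRpL18 had a difference of 1.44 ± 0.32 (edgeR adjusted p = 0.0462), and 0.73 with Mock libraries, where it did not pass (adjusted p = 0.214). DNA replication genes had a median difference of -0.52, with 0 of 20 called and 7 at an unadjusted p under 0.05, and a median of 0.27 with Mock libraries. Ribosome biogenesis genes had a median of 0.33, which was -0.17 with Mock libraries and -0.11 without captured recovery replicate 2, with 0 of 18 called and 17 lower in poly(A) RNA.

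The lists of noncoding transcripts rested on few counts. Of 186 tested long noncoding RNAs 0 and of 148 tested antisense RNAs 1 had a called difference, at medians of 0.49 and 0.50 beside 0.07 over all genes. Without captured recovery replicate 2 the calls were 28 and 19, at medians of 1.23 and 0.83. That fit called 763 genes higher and 286 lower over all genes. With Mock libraries the antisense median was 0.13. Of 127 small nucleolar RNAs 0 were called at a median of 0.33, which was -0.11 with Mock libraries and -0.17 without captured recovery replicate 2. Of the 11 testable in poly(A) RNA, 1 was called higher and 5 lower.

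The remaining genes named by the rule met neither class. In the direction of a higher captured response were wit, a BMP type II receptor, Surf1, an assembly factor of cytochrome oxidase, Gapdh2, a glycolytic enzyme, CG9902 and cpx, complexin of synaptic vesicle release. For wit the captured level went from 2.94 ± 1.60 to 77.0 ± 57.6 CPM (SD, n = 3) at poly(A) means of 60.2 and 88.8 CPM, and the difference was 3.95 ± 0.68 (edgeR adjusted p = 0.0187). Gapdh2 stood at 29.7, 23.4 and 47.7 CPM in captured control and 155, 47.3 and 88.4 CPM in captured recovery, groups that overlapped slightly, and fell from 38.2 to 17.5 CPM in poly(A) RNA. The Gapdh2 difference was 2.85 ± 0.42 (edgeR adjusted p = 0.0116). The differences of Surf1, CG9902 and cpx were 2.95, 2.84 and 2.71, and that of CG9902 did not pass with Mock libraries (1.93, adjusted p = 0.0603). Surf1 overlaps sgl, UDP-glucose dehydrogenase, on the other strand, which was itself called at 1.03.

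In the other direction the rule named Toll-7, a Toll-family receptor, CG30460, drpr, the engulfment receptor Draper, CG31637 and ZnT49B, a zinc transporter. Toll-7 stood at 65.7 and 142 CPM in captured and rose from 2.00 to 31.5 CPM in poly(A) RNA, a difference of -2.80 ± 0.54 (edgeR adjusted p = 0.0299). CG30460 stood at 106 and 143 CPM in captured and rose from 1.85 to 14.9 CPM in poly(A) RNA. Its difference of -2.59 ± 0.31 had the lowest adjusted p of all genes (edgeR, 0.0111), yet with Mock libraries, at 9.64, 12.6 and 10.0 CPM in control and 13.3, 13.9 and 13.2 CPM in recovery, it was -0.04. For drpr, CG31637 and ZnT49B the captured means were 178, 135 and 107 CPM in control and 70.7, 62.9 and 40.8 CPM in recovery. Their differences were -1.65, -1.63 and -1.39, and with Mock libraries that of drpr was -1.05 and that of CG31637 -0.73, neither of which passed.

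The level of each gene in captured relative to poly(A) RNA was set out for each condition. Over all genes tested, the median log2 ratio of captured to poly(A) level, with 1 CPM added to each mean, was -0.06 in control and 0.04 in recovery. The 76 genes with a higher difference had a median of -1.09 in control and 1.05 in recovery, and 72 of them lay below 0 in control against 10 in recovery. The 30 genes with a lower difference had a median of 1.45 in control and 0.18 in recovery, and 29 of them lay above 0 in control. The change of this ratio is the difference itself, so its direction is no separate result. The control level also enters the difference, so the side on which the genes started is a description as well.

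**Figure D4:**
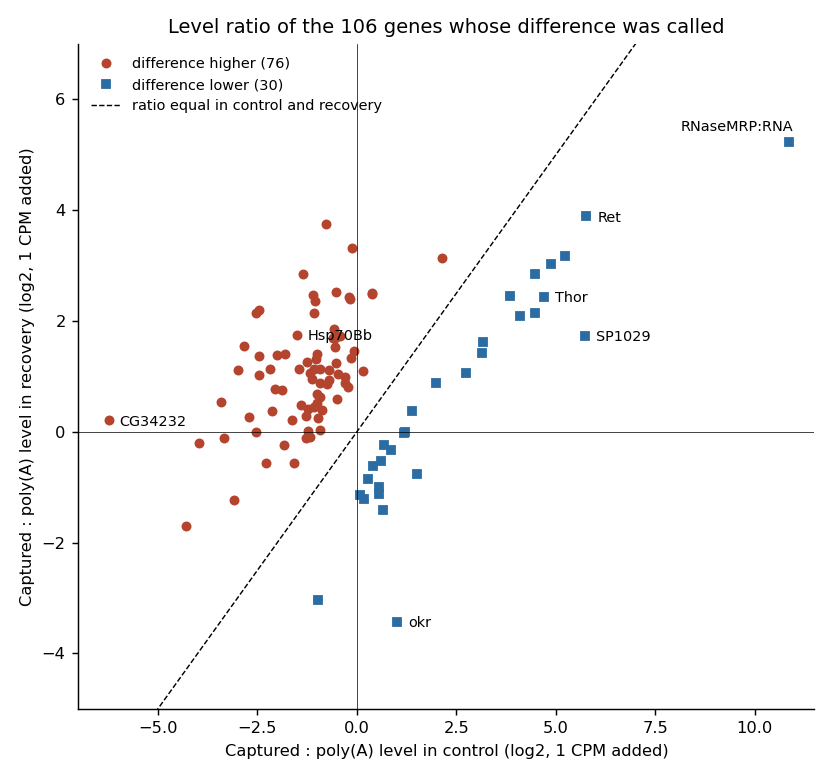
Log2 ratio of captured to poly(A) mean level in control (horizontal) and in recovery (vertical) for the 106 genes with a called difference, with 1 CPM added to each mean. Circles mark a higher and squares a lower difference, and the dashed line marks an equal ratio. RNaseMRP:RNA falls from 10.85 to 5.23, and 72 of 76 circles lie left of 0.

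Genes with a lower difference were longer in the annotation. Their median span was 5605 bp, against 2684.5 bp for the genes with a higher difference and 2702 bp for all matched genes tested. Among genes with at least 50 CPM in a captured group, the median was 5605 bp for the lower, 3536.5 bp for the higher and 4482 bp for all. In that set the median difference was 0.07 for genes under 1000 bp and -0.32 for genes over 50000 bp. Of the 30 lower genes 0 lay on the X chromosome, beside 11 of the 76 higher genes and 1438 of 8420 overall. Length and level go together here, and none of these features was tested.

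Markers of other cell types were few. Of 6 tested markers of neurons, glia, muscle and germ line all had a difference above 0, at a median of 3.49. Without captured recovery replicate 2 the median was 1.60 with 3 called higher, beside 763 higher over all genes in that fit. Of the list nSyb, neuronal synaptobrevin, singled out after its values were seen, was called. It had 0 counts over the captured controls and 8 over the recovery captures. With 3 counts over the control group as the floor its captured recovery level was 10.3-fold higher. That figure leaves out the counting error of the 8 counts, so it is no lower bound. The nSyb call held in 2 of the 12 fits without 1 library and was lost with voom weights (limma voom adjusted p = 0.133). The summed level of the list was 118 to 160 CPM in captured control, 408, 120 and 748 CPM in captured recovery replicates 1, 2 and 3, 134 to 152 CPM in poly(A) control and 227 to 237 CPM in poly(A) recovery. Elav, an RNA-binding protein of neurons, made up most of it in captured control, at 129 CPM, while nSyb and repo were at 0 there. These values moved with captured recovery replicates 1 and 3, and their part in the differences of zormin, sls and bt was not tested.

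The width of the intervals limits what an uncalled difference says. The median half-width of the 95% interval of the difference was 0.95 over all genes and 0.65 among the 3946 genes with at least 50 CPM in a captured group, of which 66 were called. In 1786 of these (45.3%) the whole interval lay within 1 of 0. That fit shared its estimate of spread over all libraries, with a common coefficient of variation of 18.4%, against 34.8% among captured libraries alone. The intervals can thus be too narrow, and a difference of 2-fold or more is not excluded by them. For myo the SE was 0.20 for the difference and 0.26 for the captured change alone, while for Prx2540-1 it was 0.41 and 0.37. For 478 of the tested genes the 6 captured libraries held under 10 counts together. At an unadjusted p under 0.05 the difference passed in 1490 genes.

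**Figure D5:**
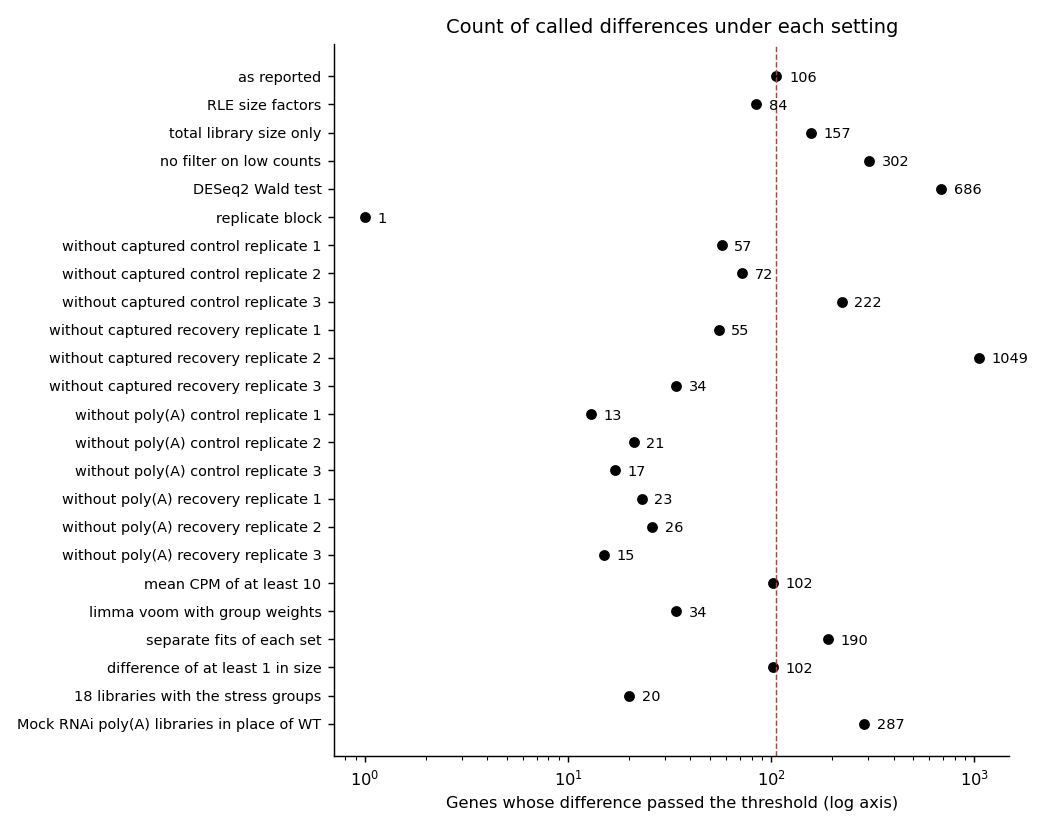
Number of genes whose difference passed the threshold, on a log axis, as reported (dashed line at 106) and under each alternative. The count ran from 1 with a block for the replicate number to 1049 without captured recovery replicate 2.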

How the data were processed

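Per the labels, a TruSeq kit was used for the poly(A) libraries and reads were single-end. The same text is attached to the captured samples, whose molecule is given as total RNA. The deposited files hold raw counts per gene symbol with 5 summary lines. The submitters' processing notes name STAR 2.5.3, HTSeq, DESeq2 and dm6, without settings. Summary lines stayed out of library sizes.

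R 4.3.3 with edgeR 4.0.16, limma 3.58.1 and DESeq2 1.42.0 was used. Counts were filtered with filterByExpr, scaled by TMM (factors 0.769 to 1.12) and fitted by edgeR's quasi-likelihood method with 1 mean per group: 12 libraries for the difference, and 6 each for the captured and the poly(A) response. Each fit took 1 estimate of spread per gene for all its libraries. Tests were two-sided, with Benjamini-Hochberg adjustment over all genes. SE is the log2 change divided by the root of F. CPM are TMM-scaled from the 12-library fit. Replicates differed by more than sampling noise in each group (chi-square per degree of freedom 1.19 to 32.7), so each counted once. The difference test was run on simulated counts in which only captured RNA changed. That does not give its rate of false calls in these data.

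The genes compared and the gene lists were chosen with earlier results of these data known. The rule named, per class and direction, up to 5 called genes by size with at least 50 CPM in a captured and 1 CPM in a poly(A) group, and up to 4 members of each list by level. Of these, the members the text turns on are given. Genes outside the rule, named after their values were seen, are CG13795, okr, Dmtn, Cyp6a23, Syngr, bt, nAChRbeta3 and CG6659. So are Prx2540-1, Prx2540-2, GlcAT-P, Hsc70Cb, mrj, nSyb and mRpL18. The overlap partners sgl, Nsun2, Tip60 and Ets21C were outside the rule too. The list of mitochondrially encoded genes matched no symbol. Positions, spans and exon overlaps came from Ensembl BDGP6.54, matched by symbol for 8420 of 8443 genes. No sequences are printed. Alternatives were RLE or total-count scaling, no filter or a mean of at least 10 CPM, DESeq2, voom with group weights, separate fits, a difference of at least 1, adding the stress libraries, Mock RNAi libraries, a block for the replicate number, and a fit without each library in turn. List medians under the Mock and left-out alternatives were chosen after seeing the data.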

Additional observations from a re-analysis of the deposited data

Results flagged for a closer look

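The recovery response in captured RNA differed from that in poly(A) RNA in each named gene past the threshold of edgeR's test of the difference itself. The log2 difference, captured minus poly(A), was as follows where the captured response was the lower: okr -9.47, RNaseMRP:RNA -6.64, SP1029 -5.45, Ret -3.03, Toll-7 -2.80, Thor -2.70, CG30460 -2.59, Hsp70Bbb -2.45, spel1 -2.28, CG13795 -2.15, Ldh -2.04, CG9932 -1.73, Cyp6a23 -1.66, drpr -1.65, CG31637 -1.63, Ac78C -1.63, Dmtn -1.49, ZnT49B -1.39, Sara -1.20. Where it was the higher, the difference was as follows: sgl 1.03, CG7839 1.11, mrj 1.22, mRpL18 1.44, myo 1.52, Hsc70Cb 1.57, Syngr 1.95, CG6659 2.09, CG12746 2.18, GlcAT-P 2.24, Prx2540-2 2.28, Prx2540-1 2.29, CG18547 2.56, cpx 2.71, CG5961 2.72, nAChRbeta3 2.74, Gip 2.84, CG9902 2.84, Gapdh2 2.85, Surf1 2.95, mRF1 2.99, sls 3.10, zormin 3.23, Hsp70Bb 3.34, dgt4 3.36, wit 3.95, bt 5.65, CG34232 6.56, nSyb 8.58. The fitted values of okr and nSyb rest on a group with 0 counts and are no measure of size. Dixon's test for a single far value was not run, since each group has 3 libraries.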

How the results depend on the processing

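The count of called differences, 106 as reported, was 302 without a filter on low counts (110 higher and 192 lower), 686 with DESeq2 (441 and 245), 34 with voom group weights, 190 with separate fits of each set, 20 in a fit of 18 libraries that adds the stress groups, and 287 with Mock poly(A) libraries, which share 63 calls. RLE scaling (84), total counts (157), a mean of at least 10 CPM (102) and a difference of at least 1 (102) stayed within 1.5 times. Leaving out 1 library gave 13 to 1049. The captured count, 281, was 1165 without a filter, 759 with DESeq2, 0 with the captured stress libraries added (edgeR), and 0 to 1167 without 1 library, the 0 being without captured control replicate 2 or captured recovery replicate 3. The poly(A) count, 5666, ran from 5130 to 6651. Total counts shifted the median of all genes from 0.07 to -0.05 for the difference, from 0.03 to -0.29 in captured and from -0.00 to -0.18 in poly(A) RNA.

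With the replicate number as a block the difference count was 1 (Thor) and the captured count 114. The numbers did not pair the samples: same-numbered captured libraries had correlations of -0.14, -0.29 and -0.01 and poly(A) libraries 0.03, -0.01 and 0.01 between their deviations from the group means.

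With a bound of 0.25 the captured-only class held 9 higher and 2 lower genes, and with a bound of 1 the poly(A)-only class held 6 higher genes. Of the single-gene values, 2 changed sign, both with Mock libraries: Hsp68 to 1.08 and Hsp26 to 0.0134. The cause was not tested. The shallowest captured library held 169760 counts.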
